A study of Homo sapiens with 12 samples.

Results

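The collagen genes encode the alpha chains of the collagens, and 44 of the 60664 genes measured in MDA-MB-231 cells belong to this family. Members were taken by symbol alone, as every gene named COL followed by a number, A and a number. This line was established from a human triple-negative breast cancer. RNA sequencing covered 4 libraries of wildtype (WT) cells in normoxia, 4 of WT cells held in hypoxia for 24 hr (1% O2 in the study's methods), and 4 of CCAR2 knockout (KO) cells in normoxia. CCAR2 encodes DBC1, a nuclear protein known as an inhibitor of the deacetylase SIRT1. All 12 libraries come from the same line, and no KO library was made under hypoxia. The KO cells were made with lentiviral CRISPR/Cas9 and a single guide, and whether they are 1 clone is not stated. Loss of CCAR2 and any other difference between the edited and the WT cells therefore cannot be told apart. The methods call replicates biological, but name triplicates for the extraction and a pair per condition for the test where the labels give 4 libraries. Nothing says that these 4 came from separate cultures, so p-values measure the spread between these libraries, which may be technical.

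Each collagen molecule is a triple helix of 3 alpha chains, made of 1 kind of chain or of partner chains from different genes. Fibrillar collagens build the load-bearing fibrils of connective tissue, type IV forms the network of basement membranes, and the remaining types link, coat or anchor these structures or span the cell membrane. Fibroblasts make most of the collagen of a tumor's stroma, while carcinoma cells are known to make basement membrane and other collagens themselves. Chains are hydroxylated by oxygen-dependent enzymes before they fold, then trimmed and cross-linked outside the cell.

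The sum of the deposited values was between 153904088 and 213743693 per library in WT normoxia, between 76384973 and 195621872 in WT hypoxia, and between 68599412 and 152328450 in CCAR2 KO cells. Levels are CPM, the deposited values scaled to a common library total after TMM adjustment. CCAR2 had 149 ± 2.19 CPM in WT normoxia and 57.2 ± 2.74 CPM in the KO libraries (SD, n = 4), so its transcript was lower by 1.34 on the log2 scale but not absent. The hypoxia target CA9 had 0.0661 ± 0.0237 CPM in normoxia and 4.86 ± 0.375 CPM in hypoxia. Of the markers that check the labelled line, VIM was among the abundant transcripts, with a mean of at least 4551 CPM per condition, and CDH1 and ESR1 were near 0. ERBB2 and EPCAM, listed as low or absent in the line, had means of 92.6 and 14.7 CPM in normoxia. Of 7 luminal epithelium markers, 5 reached 0.5 CPM in every condition. KRT8, KRT18 and KRT19 had means of 893, 656 and 635 CPM in normoxia, and GATA3 had 6.04 CPM. The summed level of the 7 was between 2025 and 2321 CPM in normoxia, 2266 and 2645 CPM in hypoxia and 1771 and 1927 CPM in KO cells. Of 8 fibroblast markers, 2 (ACTA2 and PDGFRB) reached 0.5 CPM, PDPN had no count in any library, and DCN and LUM were at or near 0. The summed level of the 8 was between 4.16 and 5.89 CPM in normoxia, between 7.01 and 8.18 CPM in hypoxia and between 3.41 and 4.01 CPM in KO cells, and most of it was ACTA2. ACTA2 was called higher under hypoxia (log2 fold change of 0.75 ± 0.12) and lower in KO cells (-0.77 ± 0.13), while PDGFRB was called higher in KO cells (0.62 ± 0.22). The 5 endothelial markers summed to between 8.14 and 10.3 CPM in normoxia and 7.63 and 9.84 CPM in hypoxia. In KO cells their sum was between 10.2 and 11.2 CPM, and PECAM1 was called higher (1.11 ± 0.14). KDR (-0.27 ± 0.10), VWF (-0.94 ± 0.38) and TEK (0.92 ± 0.59) were not called in KO cells, and CDH5 was not tested. Under hypoxia none was called, and KDR alone had a negative log2 fold change (-0.40 ± 0.12). The part of these markers in the results was not tested. In bulk RNA, fewer cells of a kind and less RNA per cell cannot be told apart.

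Of the 44 collagen genes, 21 had a mean of at least 0.5 CPM in a condition and are described singly. COL15A1 was among them only through its level in KO cells. The other 23 were COL1A2, COL2A1, COL3A1, COL4A3, COL4A6, COL5A3, COL6A5, COL6A6, COL9A1, COL9A3, COL10A1, COL11A1, COL11A2, COL14A1, COL19A1, COL20A1, COL21A1, COL22A1, COL23A1, COL24A1, COL25A1, COL26A1 and COL28A1. The highest condition mean among these was 0.404 CPM, for COL9A3, and COL5A3, COL22A1 and COL23A1 had no count in any library. COL1A2, the partner of COL1A1 in the common form of type I collagen, did not exceed a mean of 0.0841 CPM, while COL1A1 had 14.3 ± 0.561 CPM in normoxia. COL3A1, a major stromal fibrillar chain, had a highest mean of 0.392 CPM. Collagen genes together took between 0.0874% and 0.142% of a library's total.

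Levels can be compared between genes per length, here as CPM per kb of the longest protein-coding transcript. COL13A1, a transmembrane collagen of cell adhesion sites, stood highest in every condition, with a mean of 60.2 CPM per kb in WT normoxia, 87.3 in WT hypoxia and 66.6 in CCAR2 KO cells. COL4A2, a chain of the basement membrane network, came next in WT cells, with 38.4 CPM per kb in normoxia and 52.3 in hypoxia. In KO cells COL6A1 had 40.5 ± 2.90 CPM per kb and COL4A2 had 38.8 ± 1.62, which do not differ beyond their spread. In normoxia these were followed by COL8A1 with 17.9 ± 0.634, COL4A1 with 12 ± 0.757 and COL6A1 with 11.9 ± 1.30 CPM per kb, the last pair within their spread. With the length of all annotated exons, COL13A1 was also highest in every condition and COL4A2 next in WT cells, but COL4A1 in normoxia was in place 7, at 5.39 CPM per kb, behind COL6A1 (9.41), COL12A1 (8.63) and COL6A2 (5.53).

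By class, the fibrillar collagens made up between 3.90% and 4.95% of the summed level per kb, the basement membrane collagens between 28.3% and 32.1%, and the other types between 63.7% and 66.7%. The sum over all members was between 173 and 190 CPM per kb in normoxia, between 204 and 261 in hypoxia, and between 219 and 234 in KO cells. It was thus above normoxia in all 8 libraries of the other conditions. COL13A1 and COL4A2 together held between 53.9% and 55.7% of the sum in normoxia, between 57.0% and 58.9% in hypoxia and between 45.8% and 47.9% in KO cells. With exon lengths these shares were lower, between 35.4% and 48.9% over the 12 libraries. The plot of the summed level by gene shows these shares library by library.

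**Figure D1:**
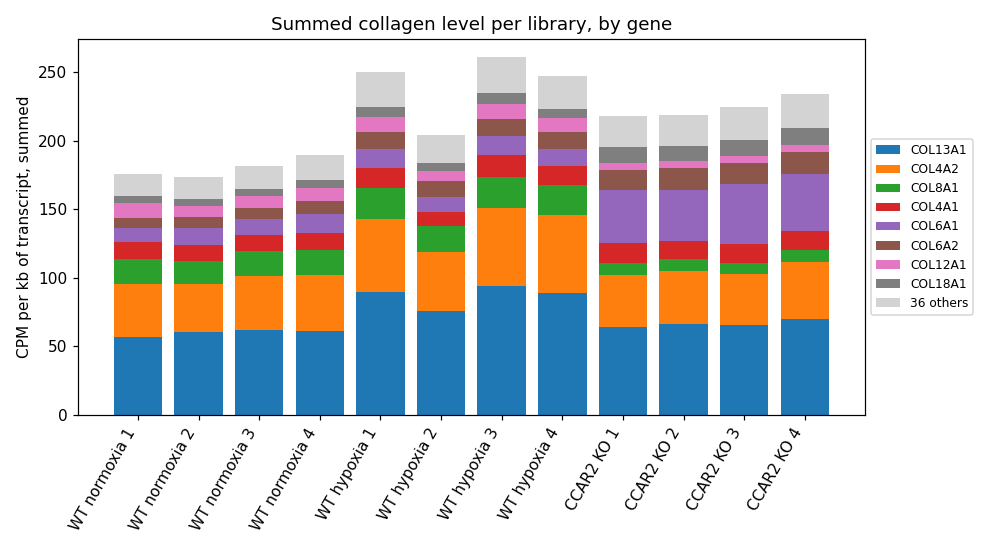
Summed level of the 44 collagen genes in each of the 12 libraries, in CPM per kb of transcript, stacked by gene, with the 8 genes of highest level in normoxia in colour and the 36 others in grey. COL13A1 and COL4A2 form the lower part of every bar, and WT hypoxia replicate 2 is the lowest hypoxia library at 204. The segments of COL6A1, COL6A2 and COL18A1 are taller in all 4 KO libraries than in any WT library, with KO means of 40.5, 15.3 and 11.4.

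Promoter sequences are given for 4 genes that stand for the patterns described next: COL5A1, with the highest fold change under hypoxia, COL6A2, called higher in both comparisons, COL8A2, which moved in opposite directions, and COL12A1, lower in KO cells. They are RefSeq sequences on GRCh38.p14, 5′ to 3′ on the strand of the gene, and end before the annotated start. COL5A1 is at chr9:134641553-134641773 on the plus strand, and COL6A2 at chr21:46097862-46098096 on the plus strand. COL8A2 is at chr1:36125223-36125472 and COL12A1 at chr6:75206054-75206303, both on the minus strand. Bases that the annotation places in an exon were left off, 29 for COL5A1 and 15 for COL6A2. Capitals mark ACGTG and GCGTG, the core letters that hypoxia-inducible factors bind, or their reverse complements CACGT and CACGC, since both strands were searched.
COL5A1: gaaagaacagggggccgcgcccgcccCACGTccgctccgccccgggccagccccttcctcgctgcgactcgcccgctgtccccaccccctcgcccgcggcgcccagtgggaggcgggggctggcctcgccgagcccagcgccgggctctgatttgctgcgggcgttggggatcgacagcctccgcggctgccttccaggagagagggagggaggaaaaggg
COL6A2: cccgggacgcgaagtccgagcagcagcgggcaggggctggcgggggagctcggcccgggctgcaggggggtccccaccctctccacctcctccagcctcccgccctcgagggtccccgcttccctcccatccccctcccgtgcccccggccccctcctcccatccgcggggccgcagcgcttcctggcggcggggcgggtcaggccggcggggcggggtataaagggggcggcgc
COL8A2: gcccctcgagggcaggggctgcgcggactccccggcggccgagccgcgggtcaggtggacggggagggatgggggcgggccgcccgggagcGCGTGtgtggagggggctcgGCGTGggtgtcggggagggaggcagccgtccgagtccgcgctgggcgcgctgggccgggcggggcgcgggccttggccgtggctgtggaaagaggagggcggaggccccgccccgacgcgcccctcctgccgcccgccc
COL12A1: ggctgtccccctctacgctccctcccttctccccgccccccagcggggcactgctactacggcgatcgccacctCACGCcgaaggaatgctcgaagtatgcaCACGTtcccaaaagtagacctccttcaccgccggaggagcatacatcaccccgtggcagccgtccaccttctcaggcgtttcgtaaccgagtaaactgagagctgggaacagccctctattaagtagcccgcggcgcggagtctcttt
The COL5A1 stretch holds 1 such motif, the COL8A2 and COL12A1 stretches 2 each, and the COL6A2 stretch none. In the 250 bases before each start, 15172 of 35116 RefSeq promoters held a motif (43.2%), and so did 18 of the 44 promoters that matched 32 of the collagen genes (40.9%). Counted by gene, a motif was found for 12945 of all 27305 genes with a RefSeq promoter and for 16 of the 32 collagen genes. Of these collagen genes, it was found for 3 of 7 called higher under hypoxia, 3 of 9 called higher in KO cells and 2 of 2 called lower in KO cells. A motif is a match of letters and not a binding site.

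Under hypoxia, 7 collagen genes were called higher in WT cells and none was called lower. By class these were 1 of 8 fibrillar, 1 of 7 basement membrane and 5 of 15 other genes tested. The fibrillar and basement membrane classes thus each rest on 1 gene. The basement membrane call, COL4A5, held in 2 of the 8 fits that left out 1 library. The genes that rose were COL5A1 (2.07-fold), COL8A2 (1.84-fold), COL16A1 (1.73-fold), COL7A1 (1.57-fold), COL13A1 (1.48-fold), COL6A2 (1.47-fold) and COL4A5 (1.46-fold). Of the 44 members, 30 passed the filter on low counts, 7 were called higher and 23 were not called, against 5.83% called higher among all 21776 genes tested. Calls required an edgeR adjusted p-value below 0.05 together with a log2 fold change of 0.5 or more in either direction, and 7.26% of all genes passed in one direction or the other. The count of genes called lower was 0 by edgeR, against 1.43% of all genes, with 1 gene lower at an unadjusted p-value under 0.05. DESeq2 and limma-voom each called 1 gene lower, COL24A1, whose mean was under 0.5 CPM. The 20 genes with a mean of at least 0.5 CPM in normoxia, without COL15A1, all had a log2 fold change above 0, with a median of 0.39 against 0.01 over all genes tested. All 4 hypoxia libraries lay above all 4 normoxia libraries for 11 of the 20, against 11.6% of all genes, and below for none, against 16%. These shares are over all genes tested, without the limit of 0.5 CPM set for the 20.

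Among the fibrillar collagens, 1 of 8 tested was called. COL5A1, the chain of type V collagen that helps start collagen fibrils, had 28.0, 24.4, 26.1 and 30.1 CPM in the normoxia libraries and 59.3, 43.8, 61.5 and 55.6 CPM in the hypoxia libraries. The groups were far apart, with a log2 fold change of 1.05 ± 0.10 (SE, edgeR adjusted p = 8.52e-05). Its partner COL5A2 had 2.18 ± 0.309 CPM in normoxia and 2.33 ± 0.499 CPM in hypoxia, and the groups overlapped. COL1A1 had 14.3 and 14.8 CPM, with a log2 fold change of 0.08 ± 0.11, and COL27A1 had 11.5 and 14.4 CPM, with 0.36 ± 0.13 (edgeR adjusted p = 0.0715) and 0.20 with a correction for GC content. Fibrillar collagens had a median log2 fold change of 0.24.

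Of 7 basement membrane collagens tested, 1 was called. COL4A5, a chain of the type IV network, had 2.15, 2.19, 1.83 and 2.06 CPM in normoxia and 3.85, 2.39, 2.88 and 2.65 CPM in hypoxia, with a log2 fold change of 0.54 ± 0.16 (SE, edgeR adjusted p = 0.0278). The call was lost in 6 of the 8 fits that left out 1 library, each of the 4 normoxia libraries and hypoxia replicates 1 and 3, with log2 fold changes between 0.39 and 0.58. COL4A2 had 250, 230, 253 and 263 CPM in normoxia and 344, 277, 370 and 367 CPM in hypoxia, without overlap. Its log2 fold change of 0.47 ± 0.09 passed the adjusted p-value (edgeR, 0.00261) and missed the fold limit. COL18A1, whose C-terminal fragment is endostatin, had 32.1, 34.3, 36.2 and 37.6 CPM in normoxia and 47.6, 42.2, 51.1 and 45.4 CPM in hypoxia, with a log2 fold change of 0.44 ± 0.07 (edgeR adjusted p = 0.00181), also under the fold limit, and with a correction for GC content it was 0.21. COL4A1, the partner of COL4A2, had 79.4 ± 5.01 CPM in normoxia and 91.3 ± 17.0 CPM in hypoxia, and COL4A4 2.28 ± 0.297 and 2.37 ± 0.374 CPM. The groups overlapped for both. COL15A1 had between 0.0927 and 0.268 CPM in normoxia and between 0.0242 and 0.265 CPM in hypoxia.

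Of 15 other types tested, 5 were called higher. COL8A2, a short-chain collagen of basement membranes such as that of the cornea, had 1.89, 2.08, 1.54 and 2.28 CPM in normoxia and 3.46, 3.81, 3.59 and 3.18 CPM in hypoxia, with a log2 fold change of 0.88 ± 0.14 (SE, edgeR adjusted p = 0.00155). COL16A1, a fibril-associated collagen, had 1.11, 1.2, 1.62 and 1.45 CPM in normoxia and 2.88, 1.64, 2.68 and 1.96 CPM in hypoxia, with 0.79 ± 0.20 (edgeR adjusted p = 0.0163). Its lowest hypoxia library lay just above its highest normoxia library, and the call was lost without WT normoxia replicate 1 (log2 fold change of 0.71, edgeR adjusted p = 0.0520) or WT hypoxia replicate 3 (0.71, 0.0519).

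COL7A1, the collagen of the anchoring fibrils beneath epithelia, had 37.2, 35.3, 39.8 and 42.8 CPM in normoxia and 62.2, 49.2, 65.2 and 62.0 CPM in hypoxia, with a log2 fold change of 0.65 ± 0.09 (edgeR adjusted p = 6.74e-04). COL13A1 had 181, 192, 198 and 196 CPM in normoxia and 286, 243, 299 and 284 CPM in hypoxia, with 0.56 ± 0.07 (edgeR adjusted p = 2.49e-04). COL6A2, a chain of the beaded microfibrils of type VI collagen, had 27.5, 29.3, 28.3 and 34.0 CPM in normoxia and 44.3, 41.7, 43.6 and 42.2 CPM in hypoxia, with 0.56 ± 0.07 (edgeR adjusted p = 4.98e-04). For these 3 genes the groups did not overlap, and their log2 fold changes became 0.44, 0.41 and 0.34 with a correction for GC content, under the fold limit. Among the 21 genes at 0.5 CPM or more, the 7 called higher had a median transcript GC content of 62.6% (47.1% to 65.3%). For the 14 not called it was 54.5% (46.6% to 66.9%), so the ranges overlap.

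Below the fold limit, the transmembrane collagen COL17A1 of hemidesmosomes had 9.93 CPM in normoxia and 13.0 CPM in hypoxia, a log2 fold change of 0.42 ± 0.10 (edgeR adjusted p = 0.0100). COL8A1, the partner of COL8A2, had 103, 96.9, 105 and 103 CPM in normoxia and 130, 110, 132 and 125 CPM in hypoxia, with 0.31 ± 0.06 (edgeR adjusted p = 0.00430). Neither overlapped between the groups. COL6A1, COL6A3, COL9A2 and COL12A1 had log2 fold changes between 0.10 and 0.16 and overlapped.

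WT hypoxia replicate 2 was the lowest of the 4 hypoxia libraries for 19 of the 21 genes. Over all genes its correlation with the other hypoxia libraries was between 0.992 and 0.994, against 0.996 to 0.997 among those 3. Without it, 9 collagen genes were called higher and 1 lower, and over all 8 fits that left out 1 library the count called higher was between 5 and 9.

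**Figure D2:**
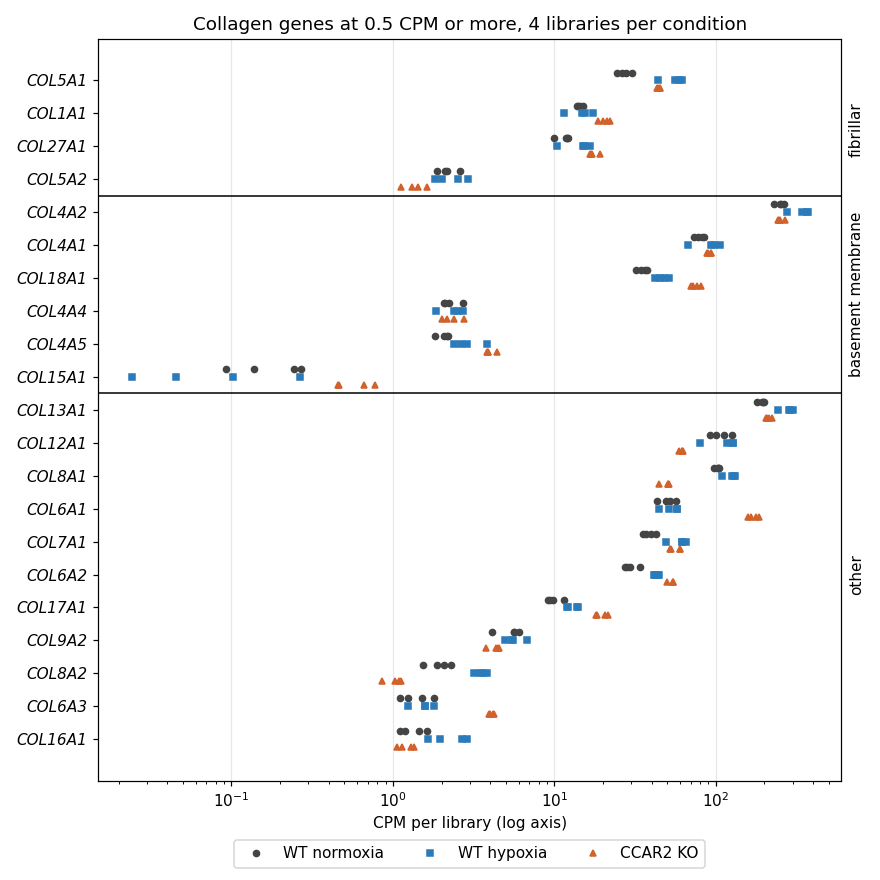
Level of the 21 collagen genes at 0.5 CPM or more in each of the 12 libraries (CPM, log axis), with WT normoxia as circles, WT hypoxia as squares and CCAR2 KO as triangles, grouped by class. COL6A1 and COL6A3 stand apart in KO cells to the right, COL8A1 and COL12A1 to the left, and COL5A1 is right of normoxia in both other conditions.

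In CCAR2 KO cells, 15 collagen genes passed the test, in both directions. COL6A1 (3.51-fold), COL15A1 (3.25-fold), COL6A3 (2.98-fold), COL18A1 (2.2-fold), COL17A1 (2.04-fold), COL4A5 (1.99-fold), COL6A2 (1.83-fold), COL5A1 (1.68-fold), COL27A1 (1.56-fold), COL7A1 (1.49-fold) and COL1A1 (1.47-fold) rose. COL8A1 (2.01-fold), COL8A2 (1.84-fold), COL12A1 (1.71-fold) and COL5A2 (1.54-fold) fell. Of the 44 members 30 were tested, and 11 were called higher, 4 lower and 15 not called. Among all 21410 genes tested, 6.73% were called higher, 2.94% lower and 9.67% either way. COL15A1 is described singly because it reached 0.5 CPM in KO cells, so its rise is a description. Of the 20 genes at 0.5 CPM or more in normoxia, 10 were called higher and 4 lower, with a median log2 fold change of 0.40 against 0.01 over all genes tested. Of these 20, 12 lay above normoxia in all KO libraries, against 13.3% of all genes, and 4 below, against 18.4%. Again the shares are over all genes tested, without the limit of 0.5 CPM. All 15 calls held in each of the 8 fits that left out 1 library.

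The type VI chains rose together, 3 of 3 tested. COL6A1 had 43.3, 52.3, 49.1 and 56.4 CPM in WT normoxia and 166, 158, 186 and 177 CPM in KO cells, for a log2 fold change of 1.81 ± 0.08 (SE, edgeR adjusted p = 1.99e-08). COL6A2 reached 49.8, 54.6, 54.1 and 54.0 CPM in KO cells, with 0.87 ± 0.07 (edgeR adjusted p = 2.48e-06). COL6A3, the long chain of the same molecule, had 1.79, 1.24, 1.11 and 1.51 CPM in normoxia and 4.02, 4.19, 3.95 and 4.23 CPM in KO cells, with 1.58 ± 0.15 (edgeR adjusted p = 7.83e-06). No KO library of the 3 genes overlapped a normoxia library.

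Of 8 basement membrane collagens tested, 3 rose, with COL15A1 among them as a description only. COL18A1 had 72.6, 70.5, 76.0 and 81.2 CPM in KO cells, all above its 32.1 to 37.6 CPM in normoxia, with a log2 fold change of 1.14 ± 0.06 (SE, edgeR adjusted p = 8.70e-08). COL4A5 had 3.81, 3.86, 3.88 and 4.41 CPM, with 1.00 ± 0.11 (edgeR adjusted p = 2.64e-05). COL15A1, the close relative of COL18A1, had 0.780, 0.660, 0.463 and 0.454 CPM in KO cells against 0.268, 0.245, 0.0927 and 0.139 CPM in normoxia. Its log2 fold change was 1.70 ± 0.36, on between 19 and 108 counts per library. It reached 0.5 CPM only in KO cells, so its rise is a description. COL4A2 had 249, 248, 245 and 268 CPM in KO cells, with 0.06 ± 0.05 (0.01 with a correction for GC content), and COL4A1 had 91.0 ± 2.31 CPM, with 0.24 ± 0.05 (edgeR adjusted p = 0.00302), under the fold limit. COL4A4 had 2.34 ± 0.324 CPM in KO cells.

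COL18A1, COL6A1 and COL6A2 lie on chromosome 21 (GRCh38), COL18A1 at chr21:45405137-45513720 and COL6A2 at chr21:46098097-46132849, both on the plus strand. Of the 47 other tested genes within 1 Mb of the stretch from COL18A1 to COL6A2, 3 rose (6.38%) and 5 fell in KO cells. The limits were the same, and the median log2 fold change of these 47 was -0.03. Of all 20988 tested genes with a position, 1421 rose (6.77%) and 615 fell. The share that rose near these genes is thus close to that of all genes, and the share that fell is above it. Over all 242 tested genes of chromosome 21 the median was 0.02. SLC19A1, which overlaps COL18A1 on the opposite strand, had a mean of 0.890 CPM in normoxia and 1.88 CPM in KO cells, far below COL18A1, and whether strand was used in counting is not given in the sources used here.

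Fibrillar chains went both ways, with 3 of 8 called higher and 1 lower. COL1A1 had 13.8, 14.4, 14.0 and 15 CPM in normoxia and 18.8, 19.9, 22.1 and 21.2 CPM in KO cells, for a log2 fold change of 0.56 ± 0.07 (SE, edgeR adjusted p = 6.16e-05). COL5A1 had 44.1, 43.2, 45.1 and 45.4 CPM in KO cells, with 0.75 ± 0.07 (edgeR adjusted p = 3.99e-06), and its partner COL5A2 had 1.32, 1.12, 1.43 and 1.63 CPM against 2.61, 2.16, 1.87 and 2.09 CPM, with -0.62 ± 0.15 (edgeR adjusted p = 0.00812). The chains of type V collagen thus moved in opposite directions. COL27A1, a fibrillar collagen known from cartilage, had 11.9, 9.93, 12 and 12.1 CPM in normoxia and 16.8, 17.1, 16.7 and 19.1 CPM in KO cells, with 0.64 ± 0.08 (edgeR adjusted p = 8.52e-05).

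Both type VIII chains fell. COL8A1 had 50.6, 50.7, 44.7 and 51.5 CPM in KO cells, against 96.9 to 105 CPM in normoxia, with a log2 fold change of -1.01 ± 0.05 (SE, edgeR adjusted p = 5.88e-08). COL8A2 had 1.09, 0.857, 1.12 and 1.04 CPM in KO cells, with -0.88 ± 0.16 (edgeR adjusted p = 0.00125). COL12A1, a fibril-associated collagen, had 126, 92.0, 101 and 112 CPM in normoxia and 62.8, 61.7, 59.3 and 61.5 CPM in KO cells, with -0.77 ± 0.08 (edgeR adjusted p = 1.48e-05). The KO libraries of all 3 genes lay below every normoxia library. Among the other types, COL17A1 had 9.78, 9.11, 9.39 and 11.4 CPM in normoxia and 21.6, 18.5, 18.1 and 20.6 CPM in KO cells, with 1.03 ± 0.09 (edgeR adjusted p = 3.78e-06). COL7A1 had 52.5, 51.9, 60.2 and 60.1 CPM in KO cells, with 0.57 ± 0.07 (edgeR adjusted p = 9.01e-05). COL13A1 had 204, 213, 208 and 223 CPM, with 0.18 ± 0.05 (edgeR adjusted p = 0.00898), and COL9A2 and COL16A1 overlapped with normoxia.

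**Figure D3:**
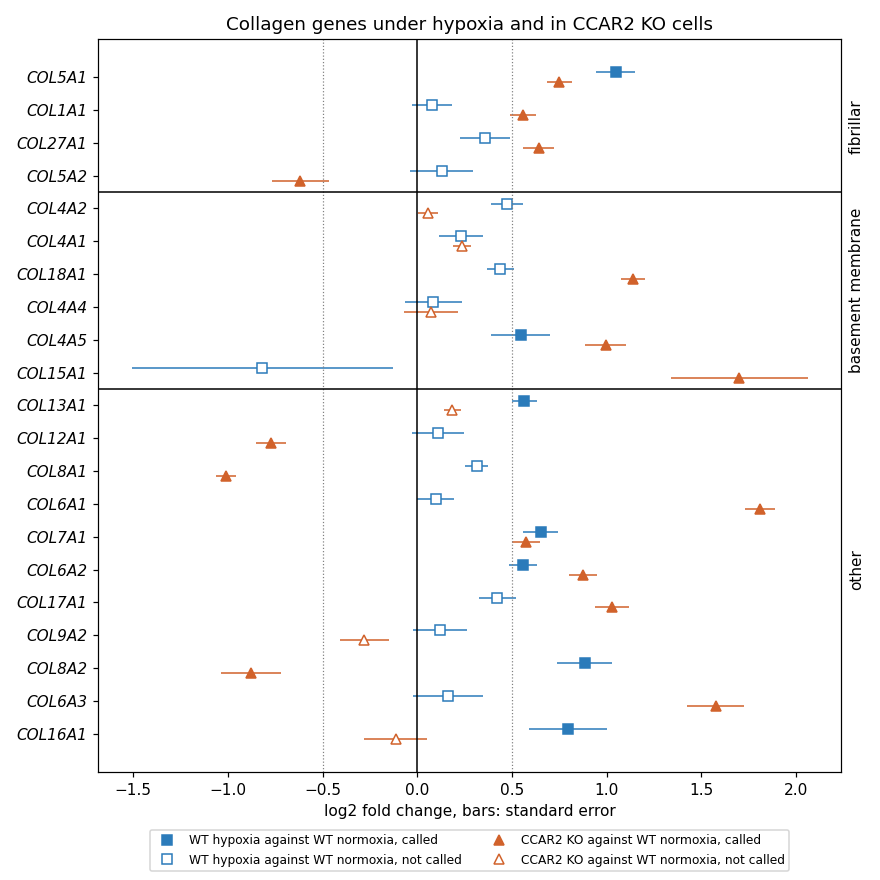
Log2 fold change of the 21 collagen genes under hypoxia (squares) and in CCAR2 KO cells (triangles), each against the same 4 WT normoxia libraries, with standard errors. Filled symbols passed the adjusted p-value of 0.05 and lie beyond the dotted lines at 0.5, and COL8A2 is the gene called in opposite directions.

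Both comparisons use the same 4 normoxia libraries, so their values are set side by side, and WT hypoxia and CCAR2 KO were compared directly for the test of the difference. COL4A5, COL5A1, COL6A2 and COL7A1 were called higher in both, COL8A2 was called higher with hypoxia but lower with the knockout, and COL4A1, COL4A2, COL4A4 and COL9A2 were called in neither. Between KO and hypoxia 32 members were tested, 6 were called higher in KO cells and 5 lower, against 7.08% and 7.88% of all 21158 genes tested (15% either way). Of the 20 genes at 0.5 CPM or more in normoxia, 4 were called higher and 5 lower. In all KO libraries, 6 of these 20 lay above all hypoxia libraries and 8 below, against 18% and 17.8% of all genes. Here too the shares are over all genes tested, without the limit of 0.5 CPM.

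The genes higher in KO than in hypoxia were COL6A1 (log2 fold change of 1.70 ± 0.08), COL6A3 (1.40 ± 0.13), COL18A1 (0.69 ± 0.07) and COL17A1 (0.59 ± 0.08), all at 0.5 CPM or more in normoxia. COL15A1 was called as well (2.54 ± 0.61), on 4 to 22 counts per hypoxia library and a hypoxia mean of 0.109 CPM. It reached 0.5 CPM only in KO cells, so this is a description. COL24A1, a minor fibrillar chain, was also called (1.89 ± 0.67, edgeR adjusted p = 0.0489), on 0 to 23 counts per hypoxia library and 22 to 35 per KO library, and 6 of the 8 fits that left out 1 library lost it. COL24A1 passed the filter here through its KO libraries, so its call is a description as well. The genes lower in KO than in hypoxia were COL8A2 (-1.77 ± 0.13), COL8A1 (-1.34 ± 0.07), COL16A1 (-0.92 ± 0.19), COL12A1 (-0.89 ± 0.12) and COL5A2 (-0.76 ± 0.18). For COL6A2 the log2 difference was 0.30 ± 0.05 (edgeR adjusted p = 7.74e-04) and for COL5A1 -0.31 ± 0.09 (edgeR adjusted p = 0.0170), both under the fold limit. With a correction for GC content these were 0.49 and -0.19. COL7A1 differed by -0.09 ± 0.09 and COL4A1 by -0.01 ± 0.11, so neither was called between the conditions.

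Ratios between partner chains, taken per kb of transcript in each library, describe the mix of transcripts. They are a description with no test. The ratio of COL6A1 to COL6A2 was between 1.29 and 1.46 in normoxia, between 0.876 and 1.07 in hypoxia and between 2.36 and 2.81 in KO cells, with no overlap among the conditions. The ratio of COL5A1 to COL5A2 was between 8.96 and 12 in normoxia, between 17.5 and 24.5 in hypoxia and between 23.2 and 32.1 in KO cells. The ratio of COL4A2 to COL4A1 was between 3.11 and 3.33 in normoxia, between 3.53 and 4.21 in hypoxia and between 2.73 and 2.94 in KO cells. COL6A3 stayed scarce throughout, with 47.6 to 79.1 times as much COL6A2 per kb in normoxia, 75.7 to 104 times in hypoxia and 38.4 to 42.5 times in KO cells.

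COL4A1 and COL4A2 are transcribed away from each other on chromosome 13, with 126 bases between their annotated starts, and hold to the same order of level in every library. The other type IV pairs are arranged alike, COL4A3 and COL4A4 with 418 bases between starts and COL4A5 and COL4A6 with 379. COL4A5 was called in both comparisons, under hypoxia in 2 of the 8 fits that left out 1 library. COL4A6 had between 0.0228 and 0.321 CPM over the 12 libraries and did not pass the filter under hypoxia. Against normoxia it passed the filter only through its KO libraries, where it was higher, so its values there are a description. Its log2 fold change in KO cells was 1.52 ± 0.62 (edgeR adjusted p = 0.0854). Of the 8 fits that left out 1 library, 2 called it.

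**Figure D4:**
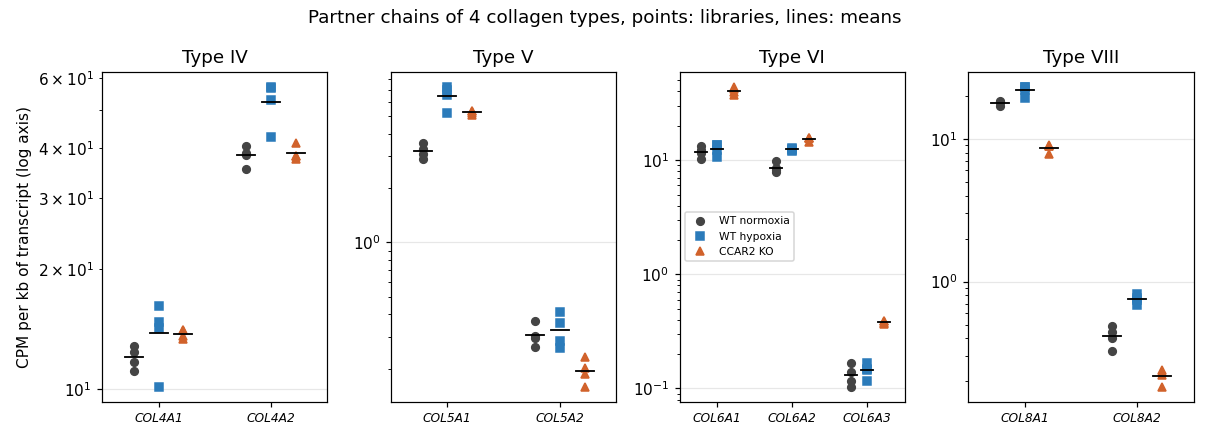
Level per kb of transcript (CPM per kb, log axes that differ between panels) of partner chains of type IV, V, VI and VIII collagen, with 1 point per library and a line at each condition mean. COL6A1 parts from COL6A2 in KO cells, COL5A1 and COL5A2 move apart there, and both type VIII chains are lowest in KO cells.

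A list of 70 genes that fold, modify, export, process, cross-link, bind or degrade collagen was read in the same fits. Under hypoxia, 60 were tested, 10 were called higher and 1 lower, against 5.83% and 1.43% of all genes, with a median log2 fold change of 0.09 against 0.01 over all genes. The lower count is close to that share. The hydroxylases and glycosyltransferases held 4 of these among 12 tested. P4HA1, a catalytic subunit of prolyl 4-hydroxylase, had 44.0 ± 1.17 CPM (SD, n = 4) in normoxia, 123 ± 12.6 CPM in hypoxia and a log2 fold change of 1.51 ± 0.07 (SE). P4HA2, another such subunit, had 0.78 ± 0.08, while P4HA3 had 0.28 ± 0.23 and was not called. PLOD1 and PLOD2, lysyl hydroxylases, rose by 0.93 ± 0.05 and 0.78 ± 0.05 on the log2 scale. Of the 5 cross-linking enzymes 3 were called higher, among them LOXL4 with 4.76 ± 0.302 CPM in normoxia, 12.6 ± 0.600 CPM in hypoxia and a log2 fold change of 1.44 ± 0.08. Of the fibril partners, HSPG2, which encodes perlecan, rose by 1.08 ± 0.15 and TNXB by 1.15 ± 0.16 on the log2 scale. MMP16, a membrane-bound metalloproteinase, was the gene called lower, with 7.85 ± 0.721 CPM in normoxia and 3.77 ± 0.756 CPM in hypoxia.

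In KO cells 59 genes of the list were tested, 17 were called higher and 1 lower, against 6.73% and 2.94% of all genes, with a median log2 fold change of 0.26 against 0.01 over all genes. Of 8 collagen receptors 5 were called higher, among them the integrin subunits ITGA10 (2.23 ± 0.272 CPM in normoxia, 9.22 ± 1.06 CPM in KO cells, log2 fold change of 2.09 ± 0.12), ITGA2 (1.09 ± 0.06) and ITGA1 (0.84 ± 0.07). FN1, which encodes the matrix protein fibronectin, had 420 ± 47.0 CPM in normoxia and 1203 ± 59.4 CPM in KO cells, a log2 fold change of 1.56 ± 0.07. COLGALT2, a collagen galactosyltransferase, and BMP1, a procollagen C-proteinase, rose by 1.36 ± 0.07 and 1.02 ± 0.05 on the log2 scale. Of the enzymes that break down collagen, 3 of 8 were called higher and 1 lower. MMP1 had 809 ± 57.6 CPM in normoxia and 358 ± 35.0 CPM in KO cells, while MMP13, at a low level, had 0.492 ± 0.154 and 0.969 ± 0.101 CPM. MMP14, a membrane-bound collagenase named after its values were seen, had 354 ± 18.1 and 563 ± 21.4 CPM, a log2 fold change of 0.71 ± 0.05. Compared directly with hypoxia, 13 of 60 genes were higher in KO cells and 13 lower, against 7.08% and 7.88% of all genes, with P4HA1 at a log2 fold change of -1.35 ± 0.07, TNXB at -1.66 ± 0.20, FN1 at 1.59 ± 0.09, ITGA10 at 2.22 ± 0.11 and MMP16 at 1.59 ± 0.15.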

How the data were processed

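RNA of 12 libraries in 3 conditions was sequenced. According to the methods, the authors aligned reads with Hisat2 and quantified them with StringTie, while the submitters' processing notes list HISAT2, SAMtools and featureCounts. The genome build, annotation and use of strand are not given in the sources used here. The authors deposited 1 whole number per gene and library, not scaled to library size, and these were taken as estimated counts, since in every library more genes held 4 than 3 or 5, so that 1 is not read as 1 read. The labels and the methods also differ in extraction reagent, library kit and number of replicates. No column of the authors' own comparisons was used.

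Each comparison was fitted over the 8 libraries of its 2 conditions with edgeR 4.0.16 in R 4.3.3 (TMM, filterByExpr, glmQLFit, glmQLFTest, Benjamini-Hochberg over all genes tested), after the scripts had been tested on simulated data. Calls required an adjusted p-value below 0.05 together with a log2 fold change of 0.5 or more in either direction. CPM used TMM factors over all 12 libraries. Lengths, positions and GC content are from GENCODE release 29 (GRCh38), which holds all 44 members, and promoters from RefSeq. Members at a mean of 0.5 CPM or more in a condition are named singly, and of the collagen pathway list up to 8 genes per comparison, by absolute log2 fold change among those called without overlap. The members and lists were chosen with earlier results of these data known. Classes followed textbook types. Leukocyte markers summed to between 0.877 and 1.13 CPM in normoxia, 0.967 and 1.32 CPM in hypoxia and 1.14 and 1.55 CPM in KO cells. Of these, CD14 was called higher in KO cells (log2 fold change of 0.67 ± 0.21), and PTPRC had -1.59 ± 0.57 without a call.

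The alternatives were limma-voom (limma 3.58.1), DESeq2 1.42.0, a replicate block, leaving out each library in turn, one fit over all 12 libraries, upper-quartile or RLE normalization, no filter on low counts, a minimum of 10 counts per library, calls without the fold limit and calls with a limit of 1 on the log2 scale. A GC content correction (lowess, span 0.3), counts divided by 4 and exon lengths were chosen after seeing the data.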

Additional observations from a re-analysis of the deposited data

Results flagged for a closer look

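Among the 21 collagen genes at 0.5 CPM or more, 63 sets of 4 libraries were checked for a library far from the other 3, by the gap to its nearest neighbour over the range of the set. At Dixon's limit for 4 values, chance passes about 1 set in 20 (3.15 of 63), and 5 did. COL27A1 in WT normoxia replicate 2 was low, at 9.93 CPM against 11.9 CPM for its neighbour (ratio of 0.903). COL27A1 in CCAR2 KO replicate 4 was high, at 19.1 against 17.1 CPM (0.839). COL4A5 in CCAR2 KO replicate 4 was high, at 4.41 against 3.88 CPM (0.885). COL6A2 in CCAR2 KO replicate 1 was low, at 49.8 against 54.0 CPM (0.874). COL8A1 in CCAR2 KO replicate 3 was low, at 44.7 against 50.6 CPM (0.878). In each case the difference between KO and normoxia was called without that library too.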

How the results depend on the processing

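Under hypoxia 7 collagen genes were called higher and 0 lower. The GC content correction, added after the data had been examined, left 4 higher (COL13A1, COL6A2 and COL7A1 fell under the fold limit), calls by the adjusted p-value alone numbered 11, and a fold limit of 1 on the log2 scale left 1. DESeq2, limma-voom and the fit of all 12 libraries each called 1 lower. Leaving out each library gave 5 to 9 higher and 0 to 1 lower (1 without WT hypoxia replicate 2 or 3). In KO cells 11 were higher and 4 lower, and 5 and 1 with a fold limit of 1. Between KO and hypoxia 5 were lower, 9 by the adjusted p-value alone and 2 with a fold limit of 1. The other settings, RLE and upper-quartile normalization, both filters and counts divided by 4 among them, kept these counts within 1.5 times.

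Of 1131 repeats of single-gene values, 1094 kept direction and side of the threshold, 9 came to pass it, 11 ceased to and 17 turned sign, none of the 17 in a value that was called. With the GC correction, COL1A1 (-0.10), COL6A1 (-0.10) and COL9A2 (-0.10) turned under hypoxia. Leaving out libraries turned COL1A1 under hypoxia (-0.0063 to 0.17), COL4A4 in KO cells (-0.020 to 0.17), and between KO and hypoxia COL4A1 (-0.13 to 0.077) and COL4A4 (-0.12 to 0.047). COL4A1 between KO and hypoxia also turned with limma-voom (0.0037), the replicate block (0.011) and the GC correction (0.013), and COL7A1 with the GC correction (0.088). The cause was not tested.

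Between conditions, same-number correlations of deviations from the condition mean were between -0.09 and 0.27. Correlations between different numbers were not computed, so whether replicate numbers pair libraries cannot be told from these values. With a replicate block the counts were 7 higher and 0 lower (hypoxia), 11 and 4 (KO cells), and 5 and 5 (KO against hypoxia).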
